A study of Mus musculus with 6 samples.

Results

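The genes described here are 9 genes of signalling in the suprachiasmatic nucleus, the ligands Vip, Prok2, Nms and Grp, the receptors Vipr2 and Prokr2, the G protein regulator Rgs16 and the transcription factors Six6 and Lhx1. Their probes were taken as every probe whose gene name in the scanner files equals one of these symbols, which gave 16 of the 56605 array probes and 9 of its 37074 gene names. Hypothalamic RNA from male mice of the strain labelled C57BL/6J DIO was hybridized in 1 colour to 6 Agilent arrays. DIO mice are mice made obese by diet, here with 60 kcal% fat for 16 weeks, under a cycle of 12 h light and 12 h dark. The 3 arrays labelled GSK-J4 hold RNA from mice given 30 mg/kg of GSK-J4, a small molecule that inhibits the demethylases removing trimethylation from lysine 27 of histone H3, and the 3 arrays labelled vehicle hold RNA from mice given vehicle. Each array holds the RNA of a different mouse. The methods place the daily intraperitoneal injection at ZT 2 h, that is, 2 h after lights on. The tissue was collected at ZT 6 h, 6 h after lights on and in the middle of the light phase. The description of the series places the tissue 4 d after exposure, whereas the methods describe daily dosing over 21 d and leave the day of collection unstated. Directions follow the labels under which the arrays were deposited.

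The suprachiasmatic nucleus is the small paired nucleus above the optic chiasm that holds the master circadian pacemaker of mammals. Its ventral core, which receives light input from the retina, contains neurons that make vasoactive intestinal peptide (Vip) and gastrin-releasing peptide (Grp), and Vip acting on its receptor Vipr2 keeps the cellular clocks of the nucleus in step. Prokineticin 2 (Prok2) carries the timing signal out of the nucleus to cells with its receptor Prokr2, neuromedin S (Nms) marks a large share of the pacemaker neurons, and Rgs16 shortens signalling by inhibitory G proteins and so sets the daily rise of cAMP. Six6 is needed for the nucleus to form, and Lhx1 maintains the peptides that couple its neurons.

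The values are the authors' quantile normalized log2 signals, and a probe was kept for testing when the scanner software marked it well above background in every replicate of 1 or both groups, which held for 34444 probes. Of the 16 probes of the 9 genes, 7 were well above background on all 6 arrays, 1 probe of Prok2 on 4 arrays, and 8 on none. The 8 kept probes cover 8 genes with 1 probe each, and Six6 had no probe above background. The groups lie on separate slides, vehicle on slide 1 and GSK-J4 on slide 2, each scanned together, so the effects of slide and of treatment cannot be told apart. Before normalization the arrays labelled GSK-J4 were dimmer. The 75th percentile of their processed signal was 461, 454 and 407, compared with 803, 916 and 788 on the arrays labelled vehicle, and 57.7% to 58.7% of their probes were well above background, compared with 62.8% to 63.6%. With 3 mice in each group, 0.1 is the smallest p of an exact two-sided permutation test.

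**Figure D1:**
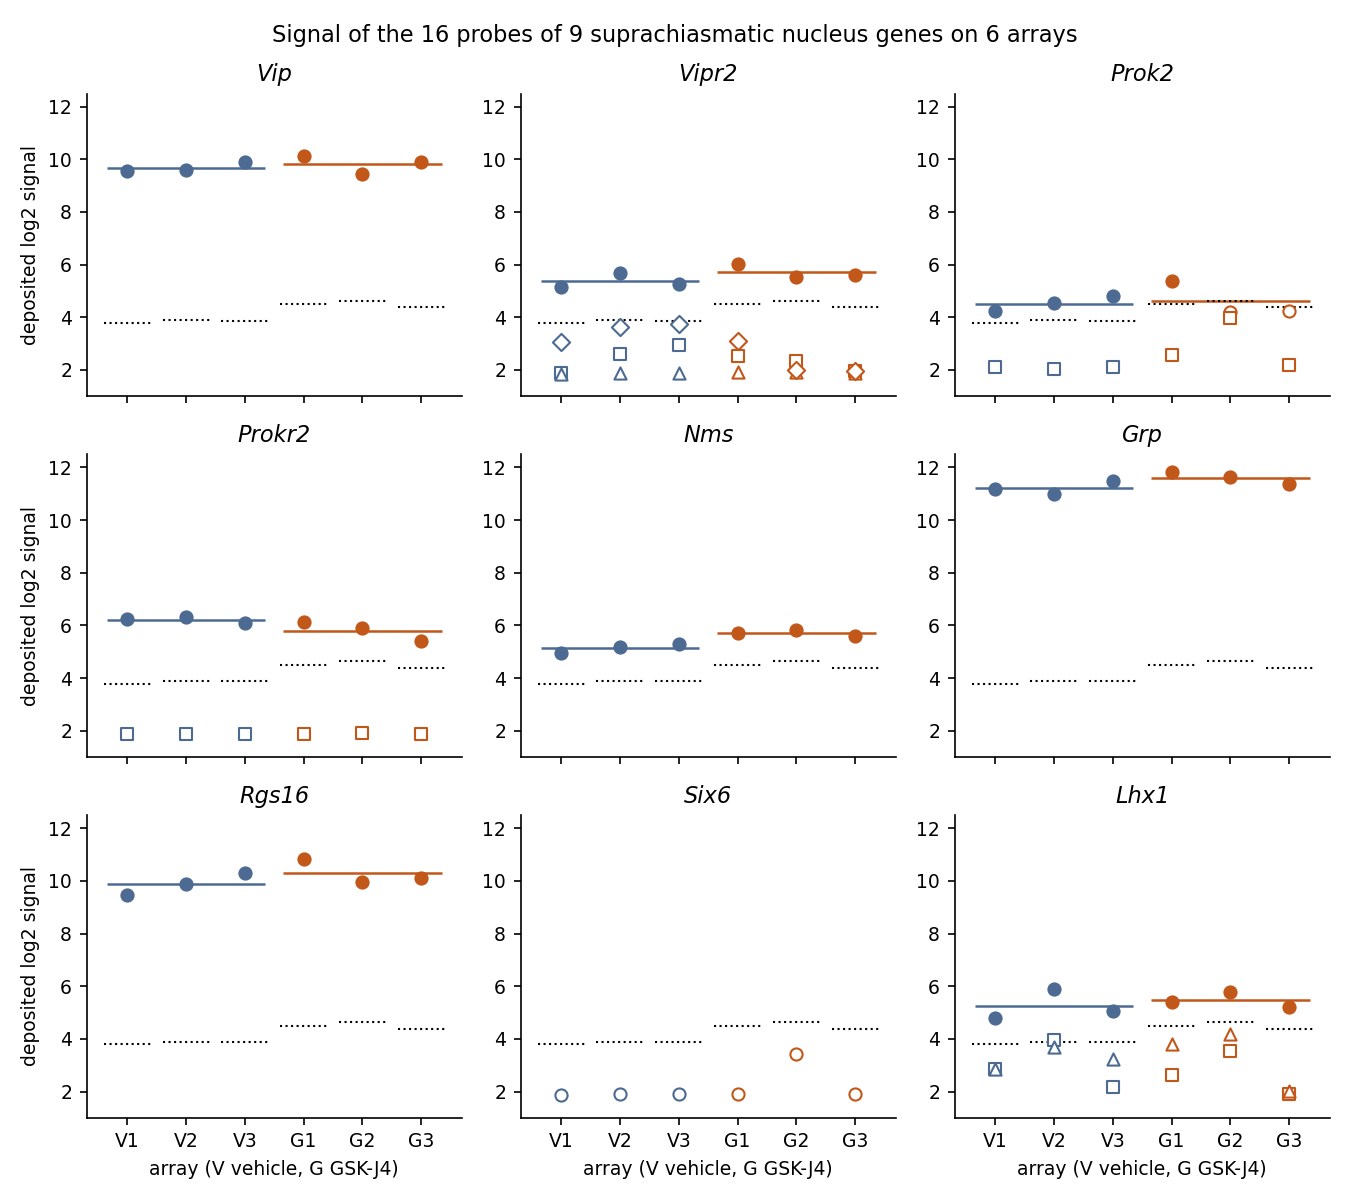
Deposited log2 signal of the 16 probes of the 9 genes on each of the 6 arrays (V1 to V3 vehicle, blue; G1 to G3 GSK-J4, orange), with each marker shape standing for 1 probe of the gene and filled markers for signals well above background. Coloured lines are the group means of kept probes (n = 3) and dotted lines the lowest signal well above background on that array; the signals of Nms, between 4.96 and 5.31 on vehicle arrays and between 5.60 and 5.83 on GSK-J4 arrays, do not overlap, and those of Six6 lie under the dotted lines.

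Among the 8 kept probes, Nms was called higher in the arrays labelled GSK-J4 and 0 probes were called lower, where a call means a limma adjusted p no larger than 0.05. The estimates of 7 probes were above 0, that of Prok2 through a single GSK-J4 array above background, and that of Prokr2 was below 0. Over all 34444 kept probes, 8.39% were called higher and 8.42% lower, so that 1 call among 8 probes is near the background. With the cutoffs that the methods give, 1.5-fold or more together with an unadjusted p no larger than 0.05, 0 of the 8 probes passed in limma, beside 4.79% of all kept probes higher and 7.86% lower. Nms was the one member whose vehicle and GSK-J4 signals were fully separated, whereas 24.5% of all kept probes were non-overlapping with GSK-J4 higher and 21.2% with GSK-J4 lower. The unadjusted p was at most 0.05 for 1 of the 8 probes, compared with 36.5% of all kept probes. The median log2 fold change of the 8 probes was 0.29, compared with 0.02 over all kept probes, of which 52.7% had an estimate above 0. A probe that misses the threshold with 3 arrays per group is not thereby shown to be equal between them. In bulk tissue, fewer cells of a type and less RNA per cell cannot be told apart.

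Nms was the member that passed the test. Its single probe, A_66_P117273, lies on the plus strand of chr1:38996140-38996199 in mm9, the build of the files, and was well above background on all 6 arrays. It begins as follows, the first 30 of its 60 bases being shown because it carries the one call among the members.
Nms A_66_P117273: ccgctcccccactattctccaatcctgttc
The log2 signal of Nms was 4.96, 5.17 and 5.31 on the vehicle arrays and 5.70, 5.83 and 5.60 on the GSK-J4 arrays. The lowest GSK-J4 array therefore lay above the highest vehicle array. The group means were 5.15 ± 0.17 for vehicle and 5.71 ± 0.12 for GSK-J4 (SD, n = 3 each), a log2 fold change of 0.57 (95% CI 0.28 to 0.86, limma adjusted p = 0.0322), or 1.48-fold. The exact permutation p was 0.1, the smallest that the design allows. With the normexp background the log2 fold change was 0.29 (limma adjusted p = 0.0346). The lowest signal well above background was 3.79 to 3.90 on the vehicle arrays and 4.39 to 4.64 on the GSK-J4 arrays. A part of this shift in the difference of Nms was not tested. The call ended when any 1 of 5 arrays was left out, with adjusted p-values of 0.0687 to 0.101, and held without GSK-J4 replicate 3, at 0.0471. It also ended with the GC content trend of the probes removed, where the log2 fold change was 0.35 and the adjusted p 0.114, within a range of adjusted p-values over all alternatives from 0.0256 to 0.115.

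The other 3 ligands gave overlapping groups. Vip, the peptide of the light-receiving core, had a log2 signal of 9.54, 9.59 and 9.89 on the vehicle arrays and of 10.11, 9.43 and 9.88 on the GSK-J4 arrays. GSK-J4 replicate 1 was the highest array and GSK-J4 replicate 2 the lowest, so that the vehicle arrays lay within the span of the GSK-J4 arrays. The log2 fold change was 0.13 (95% CI -0.36 to 0.62, limma adjusted p = 0.666), with means of 9.67 ± 0.19 and 9.80 ± 0.35 (SD, n = 3 each). The interval spans a fold from 0.779 to 1.54. Without GSK-J4 replicate 1 the estimate turned to -0.02, and without GSK-J4 replicate 2 it was 0.32. The Vip probe, A_55_P2751338, reads across a gap in the genome: its coordinates on the minus strand of chr10:4699681-4701551 span 1871 bases for a probe of 60 bases.

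Grp, whose peptide relays light signals within the core, had a log2 signal of 11.20, 11.00 and 11.49 on the vehicle arrays and of 11.85, 11.62 and 11.36 on the GSK-J4 arrays. GSK-J4 replicate 3 lay under vehicle replicate 3, and GSK-J4 replicates 1 and 2 lay above all vehicle arrays. For Grp the log2 fold change was 0.38 (95% CI -0.06 to 0.82, limma adjusted p = 0.181), with means of 11.23 ± 0.25 and 11.61 ± 0.24 (SD, n = 3 each). This difference did not pass the test, and the estimate was between 0.26 and 0.51 in the alternatives.

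Prok2, the output peptide, was close to the detection limit. Its kept probe, A_51_P429252 on the minus strand of chr6:99661399-99661458, had a log2 signal of 4.23, 4.54 and 4.80 on the vehicle arrays, all well above background. On the GSK-J4 arrays it was 5.37, 4.22 and 4.23, and GSK-J4 replicate 1 alone was well above background. The lowest signal that was well above background was itself higher on the GSK-J4 arrays, at 4.39 to 4.64, than on the vehicle arrays, at 3.79 to 3.90. The log2 fold change of 0.08 (95% CI -0.78 to 0.95, limma adjusted p = 0.882) rests on that 1 array. The remaining GSK-J4 arrays were not well above background, so that without it the difference is not a measured fold. The second probe of Prok2, A_55_P2741258, was on no array well above background, with log2 signals between 2.02 and 3.96.

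Prok2 is also the gene whose promoter holds the motif bound by the clock activators, which is the reason for showing it. RefSeq promoters (GRCm38.p6) were matched for 8 of the 9 genes, not for Grp, and the 250 bases before each transcription start were searched on both strands for the E-box CACGTG and the cAMP response element TGACGTCA. The E-box was present in 1 of the 8 windows, that of Prok2, and in 6.02% of the 32851 windows of all genes. The full letters TGACGTCA of the cAMP response element were present in 0 of the 8 windows and in 1.55% of all windows. Shorter or variant forms of either motif were not searched for. The absence of these letters from a window says nothing of the factors. The Prok2 window lies on the minus strand at chr6:99726393-99726642, with the E-box in capitals beginning 135 bases before the start.
Prok2: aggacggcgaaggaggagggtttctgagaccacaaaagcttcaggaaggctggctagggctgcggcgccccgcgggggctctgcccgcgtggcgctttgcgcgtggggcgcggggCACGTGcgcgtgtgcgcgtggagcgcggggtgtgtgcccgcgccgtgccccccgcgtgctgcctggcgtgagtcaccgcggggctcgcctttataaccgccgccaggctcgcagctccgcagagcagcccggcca

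The estimates of the receptors had opposite signs, and neither passed the test. Vipr2, the receptor of Vip, has 4 probes, of which A_51_P342773 was well above background on all 6 arrays and the other 3 on none. They are shown by their first 30 of 60 bases because a single gene gave both bright and dim probes.
A_51_P342773: acatgtgaacacaagcagtcactgagtgca
A_52_P405556: cagactcatgaattttaccagctaatttgt
A_55_P2033676: aaactgcactagcgatggatggtcagagac
A_66_P111305: aactttgccctcttcatcagcattgtaagg
All 4 lie on the plus strand of chromosome 12 in mm9, at chr12:117384455-117384514 for A_51_P342773, chr12:117378157-117378216 for A_52_P405556, chr12:117333207-117333266 for A_55_P2033676 and chr12:117377624-117377683 for A_66_P111305. The log2 signal of A_51_P342773 was 5.14, 5.68 and 5.26 on the vehicle arrays and 6.03, 5.52 and 5.62 on the GSK-J4 arrays. Vehicle replicate 2 lay above GSK-J4 replicates 2 and 3. The log2 fold change was 0.36 (95% CI -0.12 to 0.85, limma adjusted p = 0.23), with means of 5.36 ± 0.28 and 5.72 ± 0.27 (SD, n = 3 each). It was 0.21 without GSK-J4 replicate 1 and 0.06 with the normexp background. The dim probe A_66_P111305 had log2 signals of 3.06, 3.63 and 3.73 on the vehicle arrays and of 3.09, 2.01 and 1.95 on the GSK-J4 arrays. No fold is given for it, since it was not well above background in either group.

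Prokr2, the receptor of Prok2 on target neurons, was the member with an estimate below 0. Its probe A_55_P2076219, on the minus strand of chr2:132196949-132197008, had a log2 signal of 6.25, 6.32 and 6.09 on the vehicle arrays and of 6.11, 5.89 and 5.41 on the GSK-J4 arrays. GSK-J4 replicate 1 lay within the vehicle arrays and GSK-J4 replicates 2 and 3 below them. Between groups the log2 fold change was -0.42 (95% CI -0.89 to 0.05, limma adjusted p = 0.175), with means of 6.22 ± 0.12 and 5.80 ± 0.36 (SD, n = 3 each). The estimate was below 0 in all 18 alternatives that refit single probes, from -0.57 to -0.20, and passed the threshold in 0 of them, with adjusted p-values from 0.0785 to 0.439. Its other probe, A_55_P2076215, was on no array well above background, with log2 signals between 1.87 and 1.91.

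Rgs16, the regulator of inhibitory G proteins, had an SD in each group larger than its difference between the groups. Its probe A_55_P2807418, on the plus strand of chr1:155592497-155592556, had a log2 signal of 9.48, 9.89 and 10.31 on the vehicle arrays and of 10.83, 9.95 and 10.13 on the GSK-J4 arrays. GSK-J4 replicate 1 was the highest of the 6 arrays and vehicle replicate 1 the lowest. GSK-J4 over vehicle gave a log2 fold change of 0.41 (95% CI -0.34 to 1.16, limma adjusted p = 0.372), with means of 9.90 ± 0.41 and 10.30 ± 0.47 (SD, n = 3 each). Leaving out 1 array gave 0.14 without GSK-J4 replicate 1, 0.20 without vehicle replicate 1 and 0.62 without vehicle replicate 3. The difference did not pass the test, and the interval includes a 2.24-fold rise and a fall to 0.789 of the vehicle level.

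The transcription factors were measured only in part. Lhx1 has 3 probes, of which A_55_P2905111, on the minus strand of chr11:84333052-84333111, was well above background on all 6 arrays. Its log2 signal was 4.79, 5.89 and 5.04 on the vehicle arrays and 5.42, 5.77 and 5.20 on the GSK-J4 arrays, so that the GSK-J4 arrays lay within the span of the vehicle arrays. The log2 fold change was 0.22 (95% CI -0.55 to 0.996, limma adjusted p = 0.637), with means of 5.24 ± 0.58 and 5.46 ± 0.29 (SD, n = 3 each). It was -0.03 with the GC content trend removed, near 0 without vehicle replicate 1 and 0.55 without vehicle replicate 2. The other 2 probes of Lhx1 were on no array well above background. The single probe of Six6, A_55_P2175095 on the plus strand of chr12:74045825-74045884, had log2 signals of 1.87, 1.89 and 1.89 on the vehicle arrays and of 1.92, 3.43 and 1.90 on the GSK-J4 arrays. None of these was well above background, so no difference is given for Six6.

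**Figure D2:**
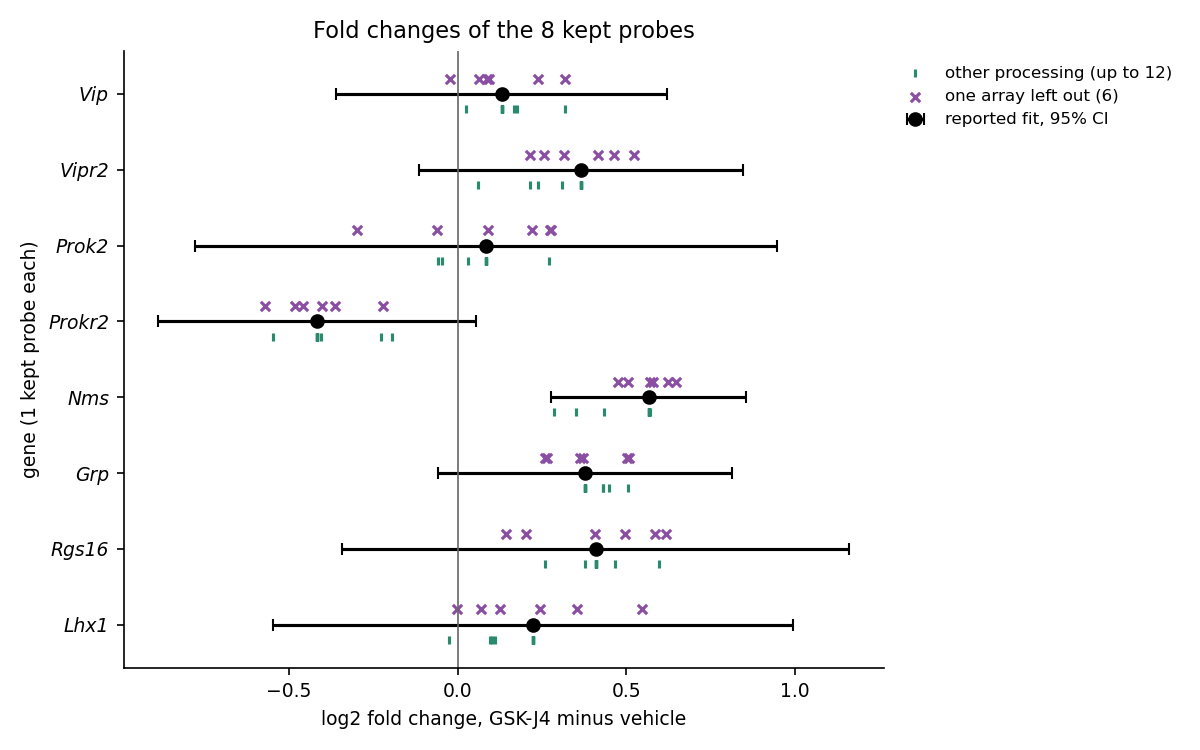
Log2 fold change of GSK-J4 over vehicle for the 8 kept probes, with the 95% confidence interval of the limma fit (black), the estimates under other processing (green) and those with 1 array left out (purple). The interval of Nms, 0.28 to 0.86, lies above 0, and the other 7 intervals include 0.

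Array by array, the members shared some highs and lows. Among the 7 probes well above background on all 6 arrays, GSK-J4 replicate 1 was the highest GSK-J4 array for 5, namely Vip, Vipr2, Prokr2, Grp and Rgs16, compared with 31.4% of the 30962 such probes on the array. Vehicle replicate 1 was the lowest vehicle array for 5, namely Vip, Vipr2, Nms, Rgs16 and Lhx1, compared with 39.6% of all such probes. Vehicle replicate 3 was the highest vehicle array for Vip, Nms, Grp and Rgs16, compared with 36.9%. Rgs16 deviated from its group mean by 0.53 on GSK-J4 replicate 1 and by -0.41 on vehicle replicate 1, and Lhx1 by 0.65 on vehicle replicate 2.

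**Figure D3:**
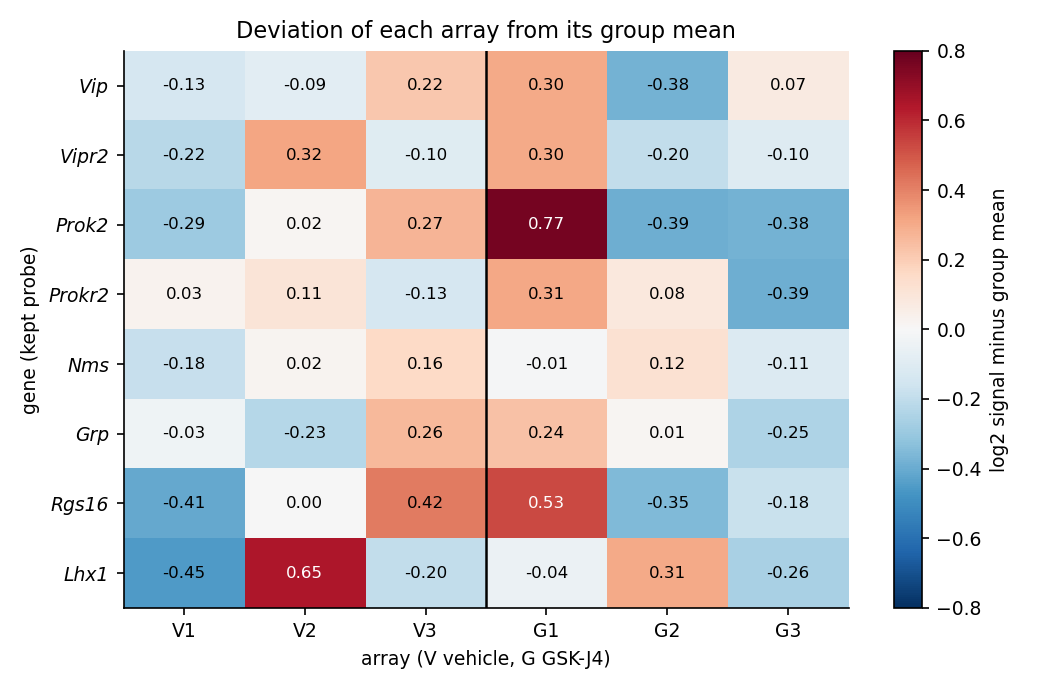
Deviation of the log2 signal of each kept probe on each array from the mean of its own group (V1 to V3 vehicle, G1 to G3 GSK-J4), in log2 units, red above and blue below the mean. Prok2 on GSK-J4 replicate 1, at 0.77, and Lhx1 on vehicle replicate 2, at 0.65, deviate by the most.

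Vehicle replicate 1 also had the highest signal of choroid plexus markers. All 7 markers of the choroid plexus were kept, and the sum of their linear signals was 112003 on vehicle replicate 1, 3193 and 3381 on the other vehicle arrays, and 12458, 2935 and 5836 on the GSK-J4 arrays, with Ttr, the transthyretin gene, the brightest. The members were also fitted without that array. The log2 fold change of Nms was then 0.47 (limma adjusted p = 0.0804), that of Lhx1 was near 0 and that of Prok2 was -0.06. A part of choroid plexus RNA in the member values was not tested.

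The profiles most like those of a ligand, a regulator and a transcription factor were listed by Pearson's r over the 6 arrays, as a description, among 12242 probes well above background on all 6 arrays with an SD of at least 0.25. For Vip these were a transcript listed as ENSMUST00000120687 with r = 0.988, a region listed by its coordinates with r = 0.98 and Adcy8, an adenylyl cyclase, with r = 0.977. For Rgs16 they were Glipr1 with r = 0.987, Mreg with r = 0.983 and Setd1b, a histone methyltransferase, with r = 0.982. For Lhx1 they were B830008H07Rik with r = 0.952, a feature listed as NAP113833-1 with r = 0.95 and Teddm2 with r = 0.944. With 6 arrays such values are common: 53 gene names had r over 0.9 with Vip, 88 with Rgs16 and 10 with Lhx1.

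The estimates of all probes on these arrays followed the GC content of the probe, and the members were read against it. The median log2 fold change went from -0.15 for the 7292 kept probes with 35% GC to 0.08 for the 7956 with 45% and 0.24 for the 2617 with 55%. Nms has 50% GC, where the median of 848 probes was 0.19 and 89.6% of them lay below Nms. Vip, Prokr2 and Rgs16 have 35% GC, and 81.4%, 24.7% and 95.3% of the probes with that GC content lay below them. Vipr2, at 45% GC, and Grp, at 40% GC, had 82.7% and 88.9% of the probes of their class below them. Prok2 has 35% GC as well, and no rank is given for it, since its estimate rests on 1 GSK-J4 array. Lhx1, at 55% GC, lay near the median of its class, with 47.7% of the probes below it. The part of base composition in the call of Nms was measured only through the fit with the GC content trend removed, where its log2 fold change was 0.35 in place of 0.57.

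**Figure D4:**
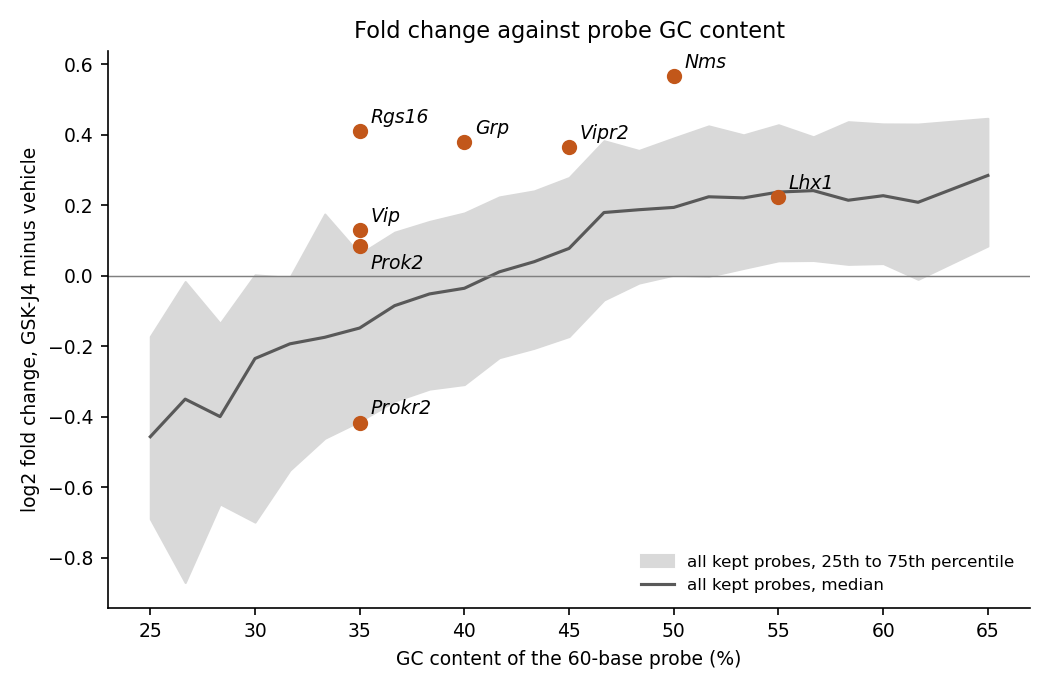
Log2 fold change of GSK-J4 over vehicle against the GC content of the 60-base probe, with the median (line) and the 25th to 75th percentiles (band) of all kept probes at each GC content and the 8 kept member probes as points. The median rises from -0.15 at 35% GC to 0.24 at 55% GC, and Lhx1 lies on it.

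Other genes of the same signalling systems were taken as fixed lists, with 1 probe per gene, the kept probe with the highest mean. Over all 22117 genes with a kept probe the median log2 fold change was 0.04, and 8.6% of these probes were called higher and 7.56% lower. The related peptides and receptors had 10 of 16 genes measured, of which 1 was called higher and 0 lower, with a median of 0.08. Nmbr, the receptor of neuromedin B, which is a relative of Grp, was higher by 0.52 on the log2 scale (95% CI 0.23 to 0.80, limma adjusted p = 0.0372) in 3 of 3 GSK-J4 arrays over all vehicle arrays. That call held in 4 of the 18 alternatives and was lost with the GC content trend removed, at 0.46 (adjusted p = 0.0536), and under 75th percentile scaling, at 0.39 (adjusted p = 0.0741). Adcyap1r1, the receptor of the peptide that carries retinal light signals, differed between its probes, with 0.53 for A_52_P615225 (limma adjusted p = 0.0402) and 0.11 for A_51_P259603 (adjusted p = 0.309), and the call held in 6 of 18 alternatives. The peptides with the highest signal in the list, Cck and Sst, had log2 fold changes of -0.03 and 0.08, neither past the test. With the arrays scaled to their 75th percentile both passed, Cck at 0.48 and Sst at 0.53 (limma adjusted p = 0.0276 and 0.0203). Avp, the vasopressin of the shell of the nucleus, had no kept probe.

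The G proteins and regulators of G protein signalling had 19 of 19 genes measured, of which 0 were called higher and 1 lower, with a median of 0.01. Gnai1, an inhibitory alpha subunit of the kind that Rgs16 acts on, was lower by -0.31 on the log2 scale (95% CI -0.49 to -0.13, limma adjusted p = 0.0415). The call of Gnai1 held in 6 of 18 alternatives, and the estimate was -0.07 under 75th percentile scaling (adjusted p = 0.532) and -0.12 with the GC content trend removed (adjusted p = 0.295). Other probes of 2 genes were called too. Rgs8 was 0.77 higher by A_52_P635598 (limma adjusted p = 0.012) and -0.08 by A_52_P600417, the brighter probe (adjusted p = 0.513). Gnas, the stimulatory alpha subunit below Vipr2, had probes called in both directions, with 0.94 for A_55_P2729011 and -0.54 for A_52_P112188 (limma adjusted p = 0.0189 and 0.0165), and -0.33 for A_55_P2081313 (adjusted p = 0.0493), which turned to 0.16 under 75th percentile scaling. These calls held in 13, 13 and 4 of 18 alternatives. The brightest Gnas probe, A_66_P115337, was not called, at -0.18 (limma adjusted p = 0.108). Neither were A_55_P2939538, A_55_P2935466 and A_55_P2081323, at -0.42, -0.47 and 0.03. Gnao1 and Rgs14 had log2 fold changes of 0.18 and -0.20, neither past the test. Their size varied between alternatives, from 0.03 to 0.49 for Gnao1 and from -0.42 to -0.01 for Rgs14.

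The transcription factors of the nucleus had 7 of 10 genes measured, of which 2 were called higher and 0 lower, with a median of 0.13. Zfhx3, which in the adult nucleus drives neuropeptide genes, was 0.51 higher on the log2 scale (95% CI 0.30 to 0.71, limma adjusted p = 0.0226), and its second probe, at 0.48, did not pass the test (adjusted p = 0.244). The call of Zfhx3 held in 11 of 18 alternatives, with estimates from 0.35 to 0.56. Rax, a gene of the developing hypothalamus that adult tanycytes keep, was 1.09 higher (limma adjusted p = 0.0323), a call that held in 8 of 17 alternatives. Its vehicle signals of 3.89, 3.86 and 4.17 lie near the lowest signal well above background, and it was well above background on 5 of the 6 arrays, so its size is uncertain. It was kept for testing through the GSK-J4 group alone, where it is higher. Rora had log2 fold changes of 0.42 and 0.32 by 2 probes that did not pass the test, and of -1.32 by A_55_P2068006 (limma adjusted p = 0.0384), which was well above background on 5 arrays and kept its call in 8 of 17 alternatives. The size of this last value is uncertain, since GSK-J4 replicate 2 was not well above background, and it was -0.99 without that array. The probe was kept for testing through the vehicle group alone, where it is higher. Lhx2 and Id2, the genes with the highest signal that were not called, had log2 fold changes of -0.11 and 0.13, and the estimate of Lhx2 turned to 0.15 under 75th percentile scaling. Six3, Vax1 and Nkx2-1 had no kept probe. The genes enriched in the nucleus had 9 of 9 measured, with 0 called higher and 1 lower, Per2, and a median of -0.08. Per1 and Calb1, the calbindin gene, had log2 fold changes of 0.18 and -0.31 that did not pass the test. Per1 passed under 75th percentile scaling, at 0.46 (adjusted p = 0.0286).

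The clock genes, the loop that runs in each pacemaker cell and in most other cells, had 19 of 19 measured, with 1 called higher and 2 lower and a median of 0.01. Per2 was lower by -0.33 on the log2 scale (limma adjusted p = 0.0415), with its other probe at 0.11 (adjusted p = 0.598). The call held in 7 of 18 alternatives, with -0.20 under 75th percentile scaling (adjusted p = 0.107) and -0.14 with the GC content trend removed (adjusted p = 0.287). Per3 was lower by its 3 kept probes, at -0.81, -0.69 and -0.37 (limma adjusted p = 0.0197, 0.0307 and 0.0418), calls that held in 13, 8 and 7 of 18 alternatives. Cry1 was 0.61 higher by A_55_P2880103 (limma adjusted p = 0.0173), a call that held in 13 of 18 alternatives, with 0.33 once the GC content trend was removed (adjusted p = 0.0499) and 0.34 with the normexp background. Its other probe, A_52_P420500, was well above background on the 3 vehicle arrays and on no GSK-J4 array, where the lowest such signal is itself higher, so no fold is given. The direction of the first probe is opposite to the one the study describes for Cry1. Single probes of Tef, at 0.69, and of Clock, at -0.81, were called as well (limma adjusted p = 0.0174 and 0.0176), while the brightest probe of each was not, at -0.11 and 0.02. Both calls held in 13 of 18 alternatives. From its transcriptome of the hypothalamus, the study describes Cry1 as reduced and Clock as increased. By real-time PCR it describes the same, with Rora increased as well. Here the called probe of Clock is lower. That of Rora is lower too, but it was kept through the vehicle group alone, so its direction is not set against the study. The other 2 probes of Rora, the brightest among them, have estimates above 0, and those of Clock are near 0. The probes of the genes that the study names thus differ in direction, and an exchange of the group labels, which would turn every direction given here, was not tested. Dbp and Cry2 had log2 fold changes of 0.37 and -0.08, neither past the test. Dbp passed under 75th percentile scaling, at 0.66 (adjusted p = 0.027), and without GSK-J4 replicate 2, at 0.49 (adjusted p = 0.0453), and Cry2 turned to 0.21 under 75th percentile scaling and to 0.11 with the GC content trend removed.

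**Figure D5:**
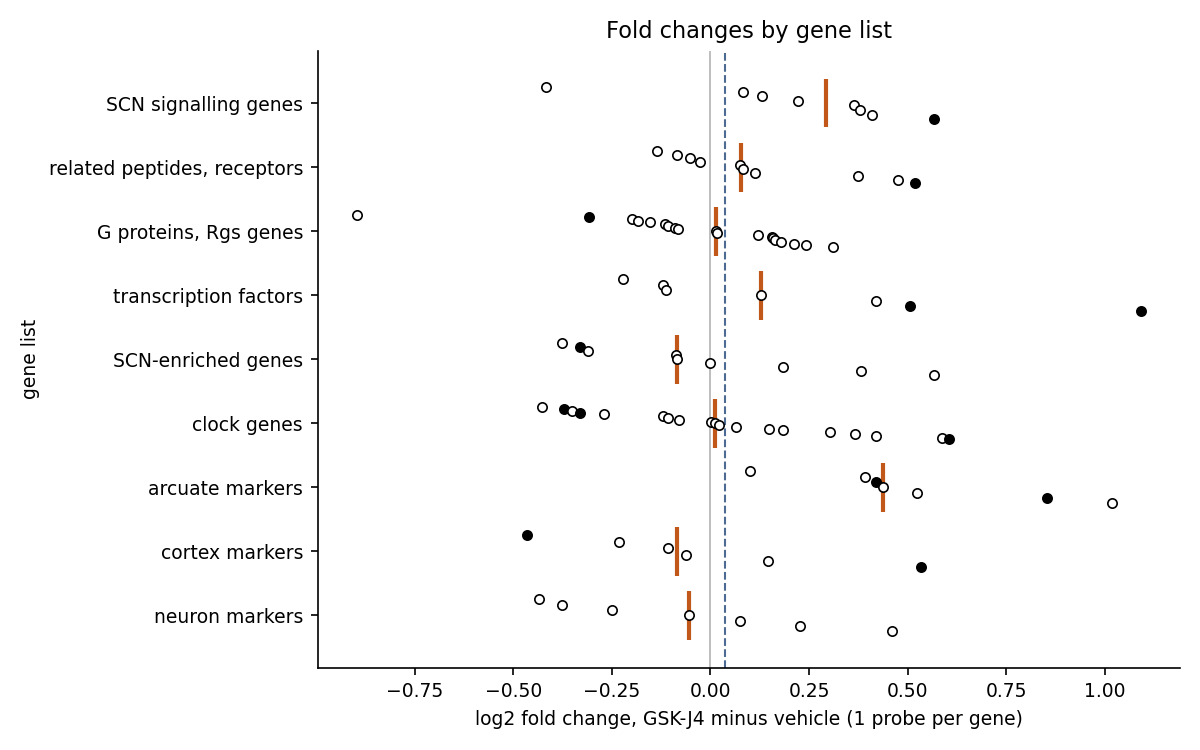
Log2 fold change of GSK-J4 over vehicle for each measured gene (points, 1 probe per gene) of 9 fixed lists, filled where the limma adjusted p was at most 0.05, with the median of each list as an orange line and that of all 22117 genes, 0.04, as a dashed line. The list medians run from -0.09 for cortex markers to 0.44 for arcuate markers, with 0.29 for the members.

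The label of the tissue was checked against markers of the hypothalamus and its neighbours. All 7 markers of the arcuate nucleus were kept, with Npy the brightest, and all 7 had estimates above 0, with a median log2 fold change of 0.44. Kiss1 and Agrp among them were well above background on 5 arrays, so their estimates are uncertain. Npy and Pomc were called, at 0.42 and 0.85 (limma adjusted p = 0.0267 and 0.022). The summed linear signal of the 7 markers was 4243, 4664 and 4775 on the vehicle arrays and 6335, 5959 and 6537 on the GSK-J4 arrays, so that it did not overlap. Among all kept probes, taken singly and not as sums, 24.5% were non-overlapping with GSK-J4 higher. Nms and the arcuate sum were both higher on the GSK-J4 arrays, and the part of the dissection in this was not tested. Of the markers of the paraventricular and supraoptic nuclei 2 of 6 were kept, Crh and Oxt, with a median of 0.25, and Avp, Sim1, Trh and Otp were not. Of the lateral hypothalamic markers Hcrt was kept, at 0.81 (limma adjusted p = 0.0587), and Pmch was not. Of the ventromedial markers 2 of 4 were kept, with a median of -0.05, and of the mammillary markers 2 of 6, with a median of 0.33. The summed linear signals of the paraventricular and supraoptic markers (361 to 467 vehicle, 499 to 586 GSK-J4) did not overlap. Nor did the linear signal of Hcrt, from 1 kept probe (26.4 to 28.3, 34.3 to 63.0), or the mammillary sums (271 to 345, 360 to 420). All were higher on the GSK-J4 arrays, beside the 24.5% of all kept probes given above. The ventromedial sums overlapped. The part of the dissection in these sums was not tested.

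Markers of the cortex and of the thalamus were well above background on all 6 arrays. All 6 markers of the cortex were kept, with Neurod2 the brightest and a median log2 fold change of -0.09. Their summed linear signal was 28435 to 30160 on the vehicle arrays and 25810 to 27306 on the GSK-J4 arrays. These sums did not overlap and were lower on the GSK-J4 arrays, beside 21.2% of all kept single probes that were non-overlapping with GSK-J4 lower. Of the 6, Neurod6 was called lower at -0.47 and Emx1 higher at 0.53 (limma adjusted p = 0.0335 and 0.0373). The region from which the signal of Vip, Grp or Rgs16 comes was not tested. All 6 markers of the thalamus were kept, with a median of 0.18 and Tnnt1 called higher at 0.66 (limma adjusted p = 0.034). The 8 oligodendrocyte markers, abundant in the optic chiasm under the nucleus, had a median of 0.10 with 0 called by limma. Of 8 pituitary markers on the array 1 was kept, Lhb, at 0.18. Markers of neurons (7 of 7 kept), astrocytes (5 of 5), microglia (5 of 5) and endothelium (4 of 4) had medians of -0.05, -0.10, 0.03 and -0.04, with 0 called by limma for the 1 probe used per gene, while other probes were called, lower for 3 neuron markers and 1 astrocyte marker and higher for 1 marker of each. Of the microglial markers, Csf1r and Tmem119 were low on GSK-J4 replicate 3, Csf1r at a log2 signal of 11.88 compared with 13.68 and 13.82 on the other GSK-J4 arrays, and Cx3cr1, Aif1 and P2ry12 were not. Those of ependyma and tanycytes (5 of 5) had a median of 0.10 with 1 called, Rax, which was kept through the GSK-J4 group alone.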

How the data were processed

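Labelled RNA of 6 hypothalami, 3 per group, was measured in 1 colour. Per the file headers, spots were read with Agilent Feature Extraction 10.7.1.1, and the authors deposited the background-corrected intensity and the flags of each spot. The authors also deposited log2 values for 56745 probes including controls, quantile normalized in GeneSpring according to the methods. These log2 values were used as given, and 0 columns were left unassigned.

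Probes were compared with limma 3.58.1 (lmFit and eBayes, two-sided, no covariate) in R 4.3.3 with data.table (version 1.17.8), with Benjamini-Hochberg adjustment over the 34444 kept probes. Single probes were also compared by exact permutation over 20 orders. The test was tested on simulated data. Figures were drawn with matplotlib 3.10.9 in Python 3.11.15.

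Members and lists were chosen with earlier results of these data known. Every member is named, with every gene of the lists for related peptides, G proteins, transcription factors, enriched genes and clock genes that has a called probe, and the 2 others of highest mean level per list, a number set after values had been seen. For Vip, Rgs16 and Lhx1 the 3 genes of highest correlation are named. Alternatives were the scanner intensities with quantile normalization or 75th percentile scaling, normexp with an offset of 50, other filters and flags, the methods' t-test, other variance models, array weights, a replicate block, a lowess on GC content (span 30%), 1 probe per gene and leaving out each array. Coordinates are those of the files (mm9), and exon or UTR positions were not assigned, since no annotation of that build was used.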

Additional observations from a re-analysis of the deposited data

How the results depend on the processing

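The log2 fold changes of Vipr2, Prokr2, Grp and Rgs16 kept their direction in all 18 alternatives that refit single probes and passed the threshold in none, though their size moved, Rgs16 from 0.14 to 0.62 and Vipr2 from 0.06 to 0.52. Nms kept its direction in 18 and its call in 6, with log2 fold changes from 0.29 to 0.65. Prok2 turned to -0.047 under 75th percentile scaling and -0.058 with array weights, and ran from -0.30 to 0.28 with 1 array left out, where the lowest is not a measured fold, its 2 GSK-J4 arrays being not well above background. Lhx1 turned to -0.027 with the GC content trend removed, and ran from -0.0023 to 0.55 with 1 array left out, and Vip from -0.022 to 0.32. Under 75th percentile scaling Cck was 0.48, Gnas (A_55_P2081313) 0.16, Lhx2 0.15 and Cry2 0.21. Cry2 was 0.11 with the GC content trend removed, and Cck ran from -0.074 to 0.052 with 1 array left out. The cause was not tested.

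The 2889 probes called higher became 5032 under 75th percentile scaling, 1793 with no filter on dim probes, 1831 and 56 under the methods' t-test with equal and unequal variances, and 1679 with the GC content trend removed. The 2899 called lower became 1484 and 37 under those t-tests, and 1723 with 1 probe per gene, where fewer features were tested. Leaving out 1 array gave 1 to 2076 higher and 4 to 2481 lower. The member probes called higher were 0 in place of 1 under 75th percentile scaling, no filter, both t-tests, eBayes with trend and robust and the GC content correction, and 0 to 1 with 1 array left out. The member probes past the thresholds of the methods were 1 in place of 0 with no filter and with the other detection flag, and 0 to 1 with 1 array left out.

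With the replicate number as a replicate block, 0 probes were called higher and 0 lower, and 0 member probes were called. Arrays that share a number deviated together with correlations of 0.0072, 0.028 and 0.084, and arrays with different numbers with -0.0997 to 0.0954. Such values do not settle whether the numbers pair the samples. Signal over background limits Prok2, the dim probes and Six6.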
